A study of Mus musculus with 20 samples.

Results

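The HoxB cluster is the run of homeobox genes on mouse chromosome 11 from Hoxb1 at its 3′ end to Hoxb9 at its 5′ end, and its 9 genes were followed here in the descending and the ascending aorta. The 9 were picked by gene symbol, through their Ensembl identifiers, from the 54532 genes of a count table that covers 20 RNA-seq libraries of C57BL/6J mice. The libraries fall into 4 groups of 5. They are descending aorta under BAPN, descending aorta under water, ascending aorta under BAPN and ascending aorta under water, and each treatment lasted 1 week. BAPN (β-aminopropionitrile) is an inhibitor of lysyl oxidases, which form the cross-links of elastin and collagen fibres. The labels give neither the age, the sex nor the animal of a library, so p-values measure the spread between libraries, which may in part be technical. The region is read from the letter A or D in each library's title, set beside the study's design text.

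HOX proteins are homeodomain transcription factors that give cells along the head to tail axis their positional identity. Within a cluster the order of the genes on the chromosome follows the order of their expression along the body, with 3′ genes active further toward the head and 5′ genes further toward the tail. In the embryo the smooth muscle of the ascending aorta comes from the neural crest and the second heart field, and that of the descending aorta from somitic mesoderm. Adult vessels are known to keep part of this HOX pattern.

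In the GENCODE M21 annotation on GRCm38 (mm10), all 9 genes lie on the plus strand of chromosome 11 and their starts span 94.3 kb. Hoxb9 is the lowest by coordinate, at 96271457 to 96276595, followed by Hoxb8 at 96281905 to 96285315, Hoxb7 at 96286623 to 96290162 and Hoxb6 at 96292476 to 96301569. Hoxb5 lies at 96303336 to 96306121, and 14.94 kb separate its start from that of Hoxb4 at 96318267 to 96321638. Hoxb3 at 96323326 to 96347930, Hoxb2 at 96350525 to 96354012 and Hoxb1 at 96365752 to 96368256 complete the cluster. Some of its exons are shared with antisense genes. Of the exon bases of Hoxb3, 52.9% also belong to Hoxb3os on the minus strand, as do 27.3% of those of Hoxb2, and 3.59% of those of Hoxb5 also belong to Hoxb5os. Whether counting used the strand is not given in the sources used here, so reads of these stretches cannot be assigned to the gene or to its antisense partner.

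Promoter sequences of RefSeq on GRCm38.p6 were matched for 3 of the 9 genes, and they happen to stand for the 3 patterns seen in the aorta, with Hoxb1 near 0 in both regions, Hoxb4 expressed in both and Hoxb8 in the descending aorta. Each is shown as the 250 bases before the RefSeq start, on the plus strand, 5′ to 3′. Capitals mark matches, on either strand, to the motifs TGATNNAT (paired PBX and HOX proteins), TGACAG (MEIS proteins), TTTATA and TTTATG (CDX type) and AGGTCA (core element of retinoic acid receptor sites). The windows are chr11:96365508-96365757, chr11:96318017-96318266 and chr11:96281655-96281904.
Hoxb1: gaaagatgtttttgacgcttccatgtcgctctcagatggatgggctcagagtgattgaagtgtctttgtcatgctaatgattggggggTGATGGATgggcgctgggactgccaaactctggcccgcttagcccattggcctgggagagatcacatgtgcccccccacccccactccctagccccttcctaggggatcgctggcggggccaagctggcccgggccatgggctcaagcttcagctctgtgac
Hoxb4: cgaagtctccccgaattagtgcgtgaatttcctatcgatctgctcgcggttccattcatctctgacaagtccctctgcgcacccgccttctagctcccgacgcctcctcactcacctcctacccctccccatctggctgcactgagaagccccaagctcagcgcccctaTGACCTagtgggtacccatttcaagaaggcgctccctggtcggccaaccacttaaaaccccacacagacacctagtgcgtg
Hoxb8: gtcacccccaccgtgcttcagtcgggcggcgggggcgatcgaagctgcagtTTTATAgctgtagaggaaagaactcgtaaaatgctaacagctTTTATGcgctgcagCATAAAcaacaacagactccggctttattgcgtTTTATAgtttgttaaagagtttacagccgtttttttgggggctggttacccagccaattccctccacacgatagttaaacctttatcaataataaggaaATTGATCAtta

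The Hoxb1 window holds 1 match to TGATNNAT, 162 bases before the start, and the Hoxb4 window holds 1 match to AGGTCA, 81 bases before the start. The Hoxb8 window holds 2 matches to TTTATA, 2 to TTTATG and 1 to TGATNNAT, the last 11 bases before the start. No match to TGACAG was found in the 3 windows, and no motif overlapped another. Such matches are common. Among 32851 mouse promoters of the same length, 7.68% hold TGATNNAT, 15.9% TGACAG, 12.4% TTTATA, 10.8% TTTATG and 14.02% AGGTCA. The 3 windows also differ in base composition, with 59.2% G and C at Hoxb1, 58% at Hoxb4 and 44.4% at Hoxb8, where the median promoter has 52.4%.

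The cluster also carries 2 microRNA genes, Mir10a between Hoxb4 and Hoxb5 and Mir196a-1 beyond Hoxb9. Their mature 5′ products from RefSeq are shown because these genes mark the place where the regional difference changes size and the far end of the cluster. Capitals mark the seed, bases 2 to 8, and the 2 seeds differ.
miR-10a-5p: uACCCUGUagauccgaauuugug
miR-196a-5p: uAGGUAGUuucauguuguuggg

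Library totals ran from 15.7 M to 23.3 M counts. Levels are CPM, counts per 1 M counts of a library after TMM scaling (trimmed mean of M values), given as mean ± SD with n = 5 libraries a group. Log2 differences and their SE (standard error) come from edgeR's quasi-likelihood test. Genes are called where the Benjamini-Hochberg adjusted p, over the 15543 genes that passed a filter on low counts, is under 0.05. Of the 9 genes, 8 passed the filter. Hoxb2, Hoxb3 and Hoxb4 passed it in both regions. Hoxb5 to Hoxb9 passed it through the descending libraries alone, so for them a call in the regional comparison was built in and their number is no evidence. Smooth muscle markers were high in every group, and 0 of the 6 were called between the regions in edgeR under either treatment. Their summed level was 18009 to 20548 CPM in descending water libraries and 18127 to 19827 CPM in ascending water libraries.

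Markers of some other cell types moved with the region, and those of others did not. Under water 0 of 6 macrophage and 0 of 5 B cell markers were called, and of 6 endothelial markers 1 was higher and 1 lower in descending aorta. Of tested T cell and thymus markers 3 of 5 were called lower there, of skeletal muscle markers 2 of 3 lower, and of white adipocyte markers 2 of 6 higher. All 8 cardiomyocyte markers were lower in descending aorta, with sums of 12.1 to 16.2 CPM in descending water libraries and 346 to 840 CPM in ascending water libraries, and Myl2 at 0 in descending water. All 6 mesothelial markers were lower as well, with sums of 1.29 to 12.8 CPM in descending water libraries and 223 to 395 CPM in ascending water libraries. The sums of 6 chondrocyte markers were 34.0 to 43.9 CPM in descending water libraries and 79.6 to 106 CPM in ascending water libraries, with 5 of 5 tested called lower. Of 6 neuron markers 2 were tested, and 1 was called lower under water, as were 15.2% of all genes. Their sums were 4.36 to 7.52 CPM in descending water libraries and 6.53 to 11.6 CPM in ascending water libraries. Th and Dbh were at 0 in all descending libraries, and Snap25 in descending BAPN and ascending water libraries. Under water, 4 of 6 Schwann cell markers were called lower, 1 of 6 fibroblast markers higher and 4 lower, and 3 of 5 tested brown adipocyte markers higher and 1 lower. Over all genes 12.1% were called higher. The Schwann cell sums were close, with 346 to 369 CPM in descending water and 353 to 375 CPM in ascending water libraries. The fibroblast sums were higher in descending water libraries, with 9239 to 10498 CPM, than in ascending water libraries, with 8407 to 8725 CPM. In tissue RNA, fewer cells of a type and less RNA per cell cannot be told apart, and the part of these cells in the results below was not tested. The libraries also fell into 2 sets by the levels of 33 pseudogenes (genes with -ps in the symbol). All 5 descending BAPN libraries lay in the set with lower levels and all 5 ascending BAPN libraries in the other, so under BAPN set and region cannot be told apart within the BAPN libraries. Under water each set held libraries of both regions, and values within a set are given below.

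Hoxb1, which specifies a hindbrain segment and the facial motor neurons that arise there, was near 0 throughout. It had 0 counts in 19 of the 20 libraries and 2 counts in ascending water replicate 2, too few for the test. A total of 0 counts in the 10 descending libraries allows a level of up to 3 counts over these libraries, and this limit, like the intervals on counts below, covers counting error only.

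Hoxb2, Hoxb3 and Hoxb4 were expressed in both regions and higher in the descending aorta, by between 1.66-fold and 2.43-fold. All 3 were called higher under water, where 12.1% of the genes tested were, and all 3 under BAPN, where 14.2% were. Of all genes, 8.77% were called higher under both treatments. The Hoxb2 protein acts in hindbrain patterning downstream of Hoxb1. Its level was 8.18, 8.70, 8.44, 5.28 and 9.09 CPM in descending BAPN libraries and 6.76, 6.53, 6.66, 8.75 and 7.24 CPM in descending water libraries. In ascending aorta it was 4.32, 4.09, 4.75, 4.14 and 4.92 CPM under BAPN and 4.68, 4.11, 4.48, 4.46 and 3.86 CPM under water. Every descending library was above every ascending library, a gap of this direction that 8.37% of all genes showed under water and 9.37% under BAPN, although descending BAPN replicate 4 stood only just above the highest of them. The log2 difference of Hoxb2 was 0.73 under water (SE 0.13, edgeR adjusted p = 6.63e-05) and 0.84 under BAPN (SE 0.13, adjusted p = 1.17e-05). Within the library set with lower levels the difference under water was 0.80, and within the other set 0.71.

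Hoxb3 is another factor of hindbrain and pharyngeal arch patterning. Of the 3 it had the largest log2 difference between the regions, tested only against that of Hoxb4, by a count ratio given below. It had 14.1, 13.7, 12.8, 10.1 and 9.28 CPM in descending BAPN libraries and 13.6, 10.9, 10.05, 11.9 and 8.47 CPM in descending water libraries. In ascending aorta it had 5.88, 4.34, 5.80, 4.03 and 4.48 CPM under BAPN and 5.23, 5.17, 4.56, 4.10 and 4.94 CPM under water. The regions did not overlap under either treatment. The log2 difference of Hoxb3 was 1.197 under water (SE 0.14, edgeR adjusted p = 1.85e-07) and 1.28 under BAPN (SE 0.14, adjusted p = 6.97e-08), and within the 2 library sets under water it was 1.14 and 1.28.

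Hoxb4, known for expanding blood stem cells when it is overexpressed, had the highest level of the 3 per length of exon, as given below. It had 20.9, 18.9, 21.1, 15.2 and 17.5 CPM in descending BAPN libraries and 19.1, 20.2, 18.7, 19.5 and 15.5 CPM in descending water libraries. In ascending aorta it had 9.55, 9.77, 10.2, 8.99 and 8.52 CPM under BAPN and 11.01, 13.2, 10.2, 8.82 and 9.54 CPM under water. The lowest descending library, a BAPN one, lay above the highest ascending library. The log2 difference of Hoxb4 was 0.82 under water (SE 0.10, edgeR adjusted p = 5.84e-07) and 0.99 under BAPN (SE 0.11, adjusted p = 3.67e-08), and within the 2 library sets under water it was 0.74 and 0.99. Under BAPN a term for the library set left all 3 genes called, with log2 differences of 0.70 for Hoxb2, 1.22 for Hoxb3 and 0.81 for Hoxb4. Since set and region coincide under BAPN, that term rests on the water libraries, and this fit cannot part set from region under BAPN.

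**Figure D1:**
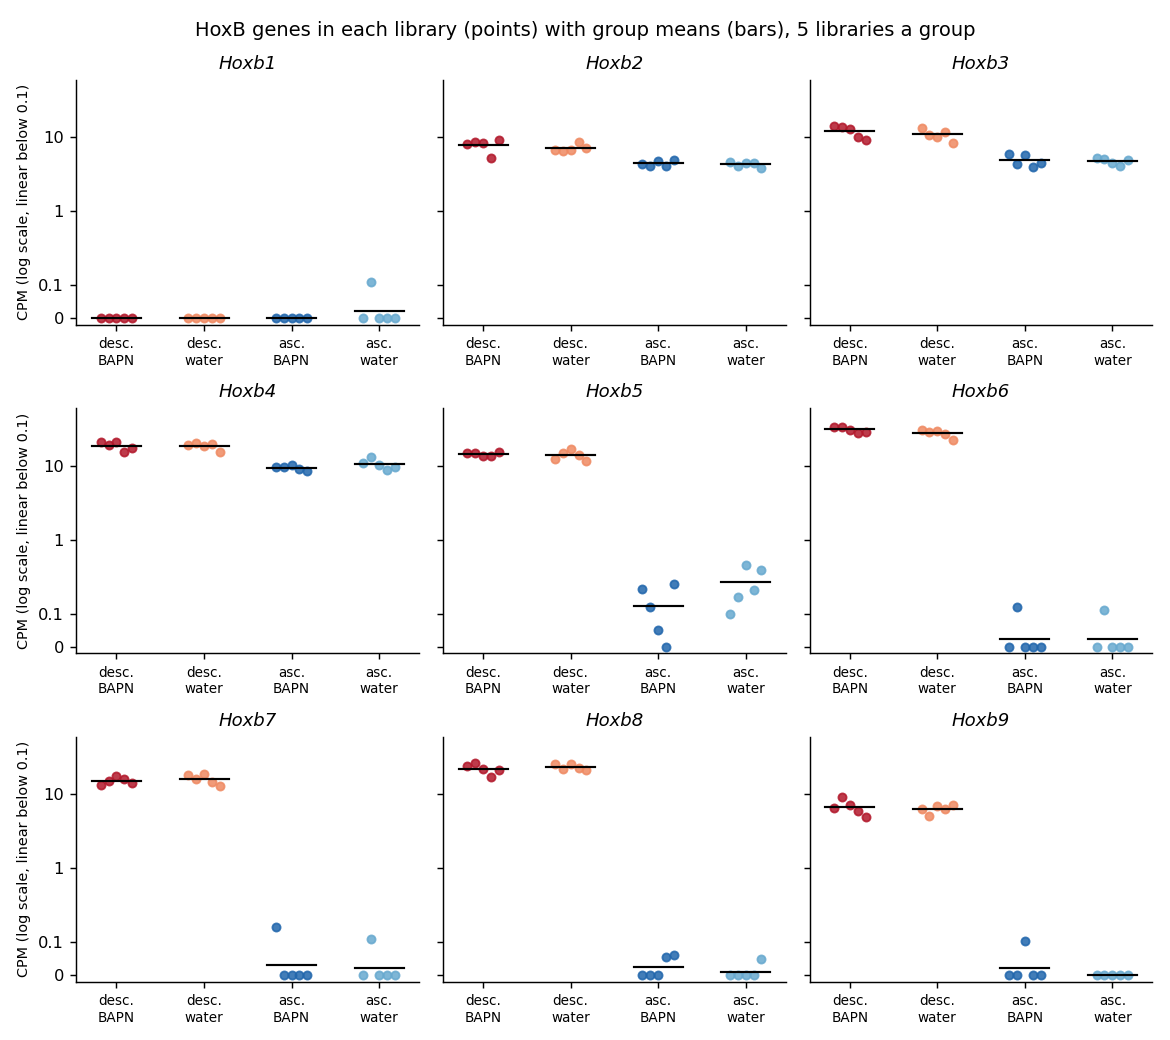
CPM of the 9 HoxB genes in each of the 20 libraries (points, replicates 1 to 5 from left to right) with group means (bars), on an axis that is logarithmic above 0.1 CPM and linear below it. Hoxb2 to Hoxb4 stand in both regions with the descending libraries above the ascending ones, Hoxb5 to Hoxb9 stand in the descending libraries with values near 0 in the ascending ones, and Hoxb1 is near 0 in all groups.

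From Hoxb5 onward the ascending aorta held almost no counts. Hoxb5, which in mouse takes part in blood vessel precursors and the enteric nervous system, had 265, 251, 230, 238 and 323 counts in descending BAPN libraries and 238, 238, 310, 259 and 187 counts in descending water libraries. In ascending aorta it had 4, 2, 1, 0 and 4 counts under BAPN and 2, 3, 11, 4 and 8 counts under water. It was thus detected in 9 of the 10 ascending libraries, at a mean of 0.128 ± 0.105 CPM under BAPN and 0.266 ± 0.153 CPM under water. Descending means were 14.5 ± 0.85 CPM under BAPN and 13.8 ± 2.06 CPM under water. The ratio of summed counts, scaled by library size, was 116 under BAPN (95% interval 64.8 to 234) and 50.0 under water (34.4 to 75.5). These intervals are exact (Clopper-Pearson) for the split of the counts.

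Hoxb6, a gene of lateral plate mesoderm and limb patterning, had the highest level of the cluster in the descending aorta, in CPM and per length of exon. It had 605, 569, 524, 487 and 601 counts in descending BAPN libraries and 597, 471, 549, 500 and 362 counts in descending water libraries. In ascending aorta it had 2 counts in total under BAPN and 2 under water, each in replicate 2 of its group, and 0 counts elsewhere. The ratio of summed counts of Hoxb6 was 1364 under BAPN (95% interval 377 to 11267) and 1408 under water (389 to 11635), so the upper side of these ratios is hardly limited by the counts.

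Hoxb7, whose promoter is widely used to mark the ureteric bud of the kidney, had 235 to 300 counts in descending BAPN libraries and 212 to 357 in descending water libraries. Its ascending totals were 3 counts under BAPN, all in replicate 1, and 2 counts under water, all in replicate 2. The ratios were 447 under BAPN (95% interval 153 to 2169) and 826 under water (228 to 6827). Hoxb8, used in mouse to hold myeloid progenitors in an immature state, had 296 to 443 counts in descending BAPN libraries and 346 to 500 in descending water libraries. Its ascending totals were 2 counts under BAPN and 1 count under water, and the ratios were 972 (95% interval 269 to 8030) under BAPN and 2379 (427 to 94014) under water.

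Hoxb9, which in mouse takes part in patterning the ribs, was the 5′ gene with the lowest level. It had 102 to 156 counts in descending BAPN libraries and 83 to 129 in descending water libraries. Its ascending totals were 2 counts under BAPN, both in replicate 3, and 0 counts under water. The ratio was 293 under BAPN (95% interval 80.7 to 2423), and under water the descending level was at least 214-fold higher, against a limit of 3 counts over the 5 ascending water libraries. The intervals of Hoxb6 to Hoxb9 overlap each other under either treatment, so no order among these 4 can be read from the ascending aorta.

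Seen along the chromosome, the ascending level fell off between Hoxb4 and Hoxb5. Over the 10 libraries of each region, the ascending level was 57.7% of the descending one for Hoxb2 (95% interval 52.9 to 63.0), 42.4% for Hoxb3 (39.1 to 45.8) and 53.7% for Hoxb4 (50.7 to 56.8). It was 1.45% for Hoxb5 (1.03 to 1.99) and between 0.0696% and 0.168% for Hoxb6 to Hoxb9. The interval of Hoxb5 lies above those of Hoxb6, Hoxb7, Hoxb8 and Hoxb9, the highest of which ends at 0.588%. Among the other transcripts of the cluster, the Mir10a gene, which lies in the gap, had 33 counts in the descending and 7 in the ascending libraries, a share of 20.1% (7.49 to 46.1). These are reads of a library not made for small RNA and say nothing of the mature microRNA. Hoxb5os had 689 counts in descending and 11 in ascending libraries, a share of 1.51% (0.75 to 2.72). Beyond Hoxb9, the non-coding gene Gm53 had 502 counts in descending and 8 in ascending libraries, and Mir196a-1 had 84 in descending and 0 in ascending libraries. Hoxb13, the next homeobox gene and 171.4 kb from the Hoxb1 start, had 0 counts in descending and 1 in ascending libraries.

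**Figure D2:**
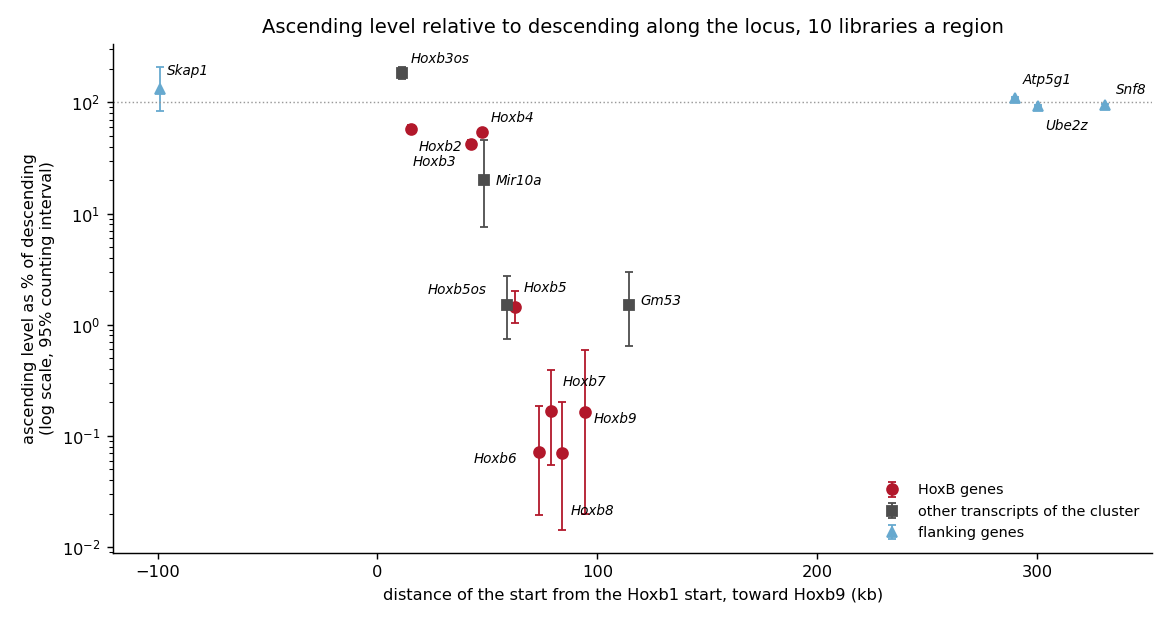
Ascending level as a percent of the descending level (log axis, 95% counting interval, 10 libraries a region) against the distance of each gene's start from the Hoxb1 start, in kb toward Hoxb9. HoxB genes are circles, other transcripts of the cluster squares and flanking genes triangles. Hoxb2 to Hoxb4 lie between 42.4% and 57.7%, Hoxb5 at 1.45%, and the flanking genes drawn between 92.4% and 131%; genes with 0 counts in a region or under 30 descending counts, and flanking genes further out, are not drawn.

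Of 13 genes flanking the cluster, 9 were tested, and under water 1 was called higher and 1 lower in descending aorta, with a median log2 difference of 0.09 beside 0.01 over all genes. Under BAPN 2 were called higher and 2 lower. Over all genes 12.1% were called higher and 15.2% lower under water, and 14.2% and 15.6% under BAPN. The 1 called higher under water was Copz2, a coat protein of transport vesicles, with 111 ± 5.55 CPM in descending water and 87.6 ± 4.48 CPM in ascending water (log2 difference 0.34, SE 0.05, adjusted p = 1.38e-05). The 1 called lower under water was Igf2bp1, an RNA-binding protein, with 0.138 ± 0.084 CPM in descending water and 0.659 ± 0.246 CPM in ascending water (log2 difference -2.24, SE 0.47, adjusted p = 0.000601). On the Hoxb9 side, the first flanking genes with high counts, Atp5g1 and Ube2z, had ascending levels of 109% and 92.4% of the descending ones. Neither was called between the regions under water, but under BAPN Atp5g1 was lower (log2 difference -0.25, edgeR adjusted p = 0.000545) and Ube2z higher (0.17, adjusted p = 0.00333) in descending aorta.

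Levels of different genes were compared per kb of exon. In the 10 descending libraries Hoxb6 was highest, with 14.9 ± 1.74 CPM per kb, followed by Hoxb7 with 10.2 ± 1.31, Hoxb8 with 8.62 ± 1.05, Hoxb4 with 7.27 ± 0.81 and Hoxb5 with 5.07 ± 0.55. Hoxb3 with 2.70 ± 0.47, Hoxb9 with 2.54 ± 0.48 and Hoxb2 with 2.17 ± 0.36 CPM per kb came last before Hoxb1 at 0. Neighbours in this order were apart in all 10 libraries except for Hoxb7 above Hoxb8, which held in 8, Hoxb3 above Hoxb9, which held in 7, and Hoxb9 above Hoxb2, which held in 8. In the 10 ascending libraries Hoxb4 led with 3.89 ± 0.53 CPM per kb, above Hoxb2 with 1.26 ± 0.10 in every library. Hoxb2 and Hoxb3, with 1.14 ± 0.16 CPM per kb, could not be parted, as Hoxb2 was above Hoxb3 in 6 of 10 libraries. Hoxb5 had 0.0706 ± 0.052 CPM per kb. When only exon bases shared with no other gene are used as length, a measure added after the data were seen, Hoxb3 had 5.74 CPM per kb in descending libraries, above Hoxb5 in 5 of 10, and 2.43 CPM per kb in ascending libraries, above Hoxb2 in all 10.

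**Figure D3:**
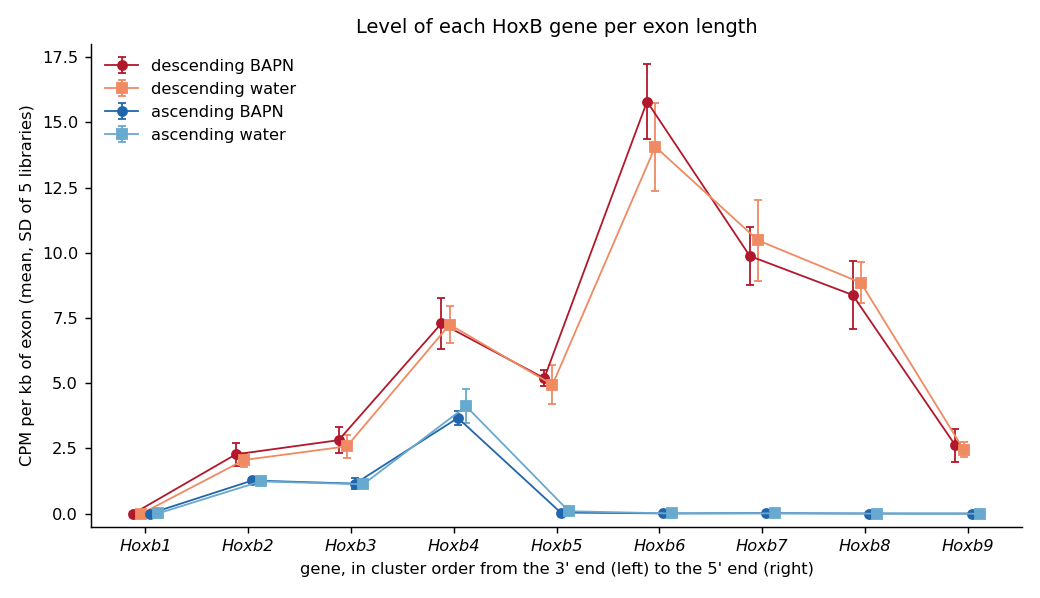
Mean level of each HoxB gene in CPM per kb of exon (points, error bars SD over 5 libraries) in cluster order from the 3′ end on the left to the 5′ end on the right, in the 4 groups. The descending groups peak at Hoxb6 with smaller values toward both ends of the cluster, the ascending groups peak at Hoxb4, and the BAPN and water lines of a region run close together.

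Hoxb3os, the antisense gene that shares 76.2% of its exon bases with Hoxb3 and Hoxb2, went the other way. Its counts were 54, 34, 46, 33 and 41 in descending BAPN libraries and 54, 30, 35, 31 and 35 in descending water libraries. In ascending aorta they were 85, 68, 97, 61 and 71 under BAPN and 69, 77, 82, 69 and 78 under water. Every descending library held fewer counts than every ascending library. In CPM, such a gap was seen in 11.7% of all genes under water and in 12.1% under BAPN. The log2 difference of Hoxb3os was -0.84 under water (SE 0.17, edgeR adjusted p = 0.000312) and -0.90 under BAPN (SE 0.17, adjusted p = 0.00012), where 15.2% and 15.6% of genes were called lower. Its level in ascending aorta was 182% of the descending level (95% interval 161 to 206).

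Per Hoxb3 count there were 0.193 Hoxb3os counts in descending BAPN and 0.883 in ascending BAPN (geometric means), and 0.187 in descending water and 0.775 in ascending water. In each case the 5 descending libraries lay below the 5 ascending ones, as they did for Hoxb3os per Hoxb2 count. This separation follows from the levels given above, since every descending library was lower in Hoxb3os and higher in Hoxb3 and Hoxb2 than every ascending one, and is given as a description. Hoxb4 counts per Hoxb3 count were 1.71 in descending water and 2.19 in ascending water without overlap. The exact permutation test (two-sided) gave p = 0.00794, the smallest that 5 against 5 allows. Under BAPN, with 1.57 in descending and 1.94 in ascending libraries, the groups overlapped (exact permutation p = 0.0476). Adjusted over the 8 ratio tests made, these permutation p were 0.0127 under water and 0.0635 under BAPN. The 8 include the Hoxb3os ratios, whose outcome followed from the levels, so the adjusted p of the others are too low. The 0.0127 is therefore not read as a pass, and the difference under BAPN did not pass. For Hoxb2 counts per Hoxb4 count no difference passed (exact permutation p = 0.206 under BAPN and 0.548 under water). Since Hoxb3 and Hoxb3os share exon bases, part of the counts behind these ratios may have been assigned to either gene.

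**Figure D4:**
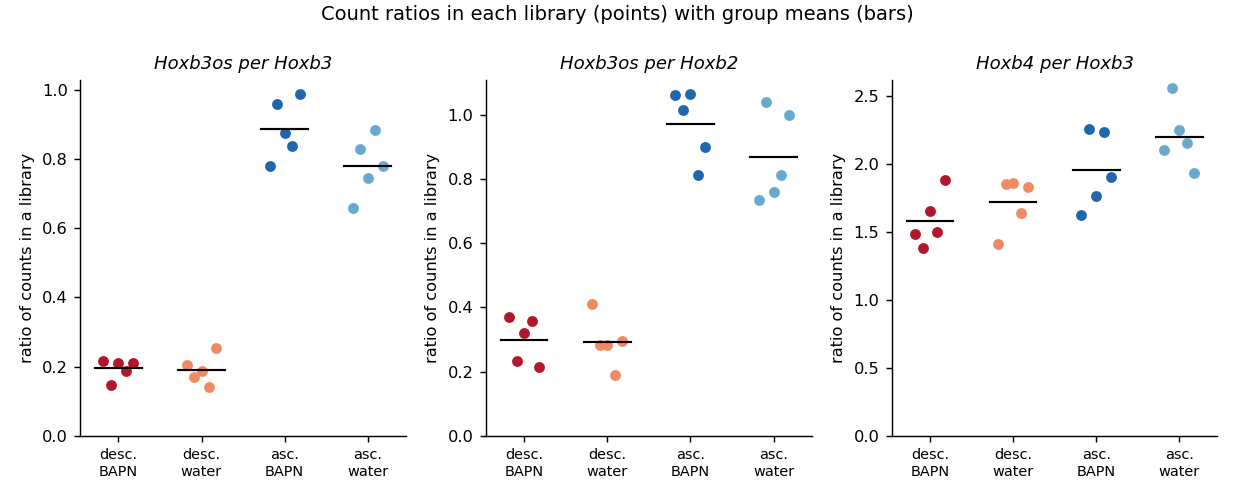
Ratio of counts in each library (points, replicates 1 to 5 from left to right) with group means (bars) for Hoxb3os per Hoxb3, Hoxb3os per Hoxb2 and Hoxb4 per Hoxb3, with axes from 0. The first 2 ratios separate the descending from the ascending libraries under either treatment, and Hoxb4 per Hoxb3 separates them under water only.

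BAPN for 1 week was followed by no called change of a HoxB gene. In descending aorta, where 10.7% of all genes were called, 0 of the 8 tested members were, by edgeR, DESeq2 or limma-voom, and 0 had an unadjusted p under 0.05 in any of these, which 23.4% of all genes had in edgeR. The log2 difference of BAPN against water there lay between -0.09 for Hoxb7 (95% interval -0.37 to 0.20) and 0.17 for Hoxb6 (-0.05 to 0.39). The widest interval was that of Hoxb9, 0.08 (-0.30 to 0.47), so a change of a smaller size than these limits could have gone undetected. Hoxb6 averaged 31.0 ± 2.83 CPM in descending BAPN and 27.6 ± 3.32 CPM in descending water, and Hoxb8 averaged 22.1 ± 3.46 CPM in descending BAPN and 23.3 ± 2.07 CPM in descending water. The libraries of the 2 treatments overlapped for all 8 genes.

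In ascending aorta, where 6.34% of all genes were called, 0 of the 8 tested members were called by any of the 3 tools. Hoxb2 differed by 0.04 on the log2 scale (95% interval -0.25 to 0.33), Hoxb3 by 0.04 (-0.28 to 0.36) and Hoxb4 by -0.16 (-0.39 to 0.07). Hoxb5 had an unadjusted p under 0.05 in edgeR and DESeq2 but not in limma-voom, and 20.2% of all genes had one in edgeR. Its totals were 11 counts in ascending BAPN and 28 in ascending water, with overlapping libraries, and its log2 difference of -1.10 (SE 0.51, unadjusted p = 0.0411) did not pass (edgeR adjusted p = 0.223; 0.134 to 0.493 over all alternatives, each library left out included). For Hoxb6 to Hoxb9, with 0 to 3 counts a group, no change can be measured in the ascending aorta.

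The difference between the BAPN effects of the regions was called for 0 of the 8 genes by edgeR, DESeq2 or limma-voom, as for 0.0% of all genes in edgeR. Hoxb6 to Hoxb9 had 0 to 3 counts a group in ascending aorta, so for them no such difference can be measured. Hoxb5 alone had an unadjusted p under 0.05, in edgeR and DESeq2, as had 6.88% of all genes in edgeR (log2 difference of the effects 1.17, SE 0.53, unadjusted p = 0.0358, adjusted p = 0.686). For Hoxb2, Hoxb3 and Hoxb4 the difference of the effects was 0.10 (95% interval -0.28 to 0.49), 0.08 (-0.34 to 0.51) and 0.17 (-0.14 to 0.48). A p that misses the threshold does not show that BAPN acted alike in both regions.

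**Figure D5:**
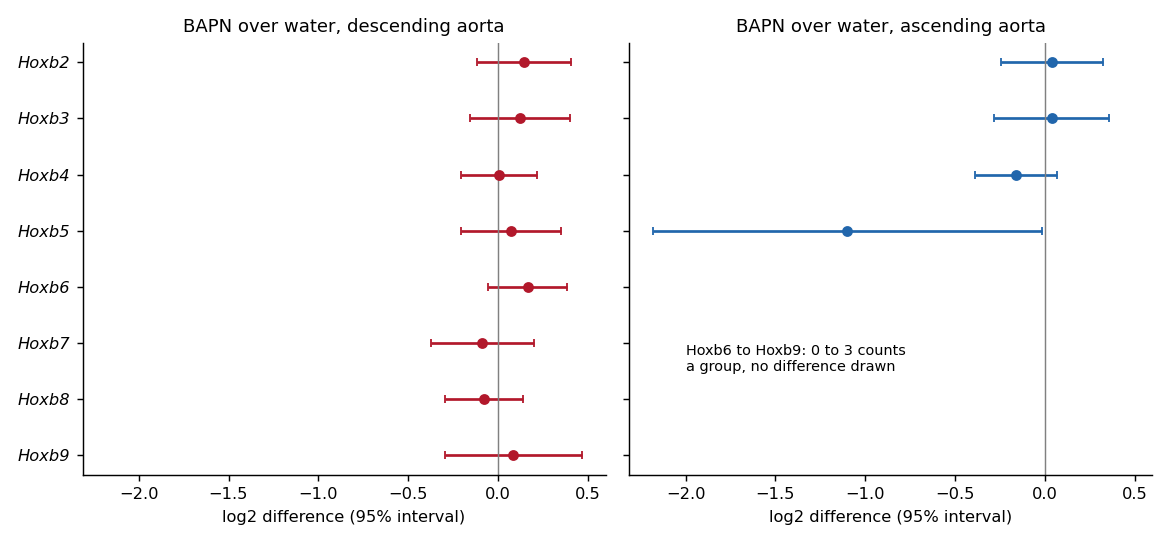
Log2 difference of BAPN over water with its 95% interval for Hoxb2 to Hoxb9 in descending aorta (left) and Hoxb2 to Hoxb5 in ascending aorta (right). Hoxb6 to Hoxb9 had 0 to 3 counts a group in ascending aorta and are not drawn there. All intervals drawn include 0 except that of Hoxb5 in ascending aorta, -1.10 (-2.18 to -0.02). It rests on 11 counts under BAPN and 28 under water and did not pass after adjustment.

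The other HOX clusters were read in the same libraries. Of 29 HoxA, HoxC and HoxD genes 15 were tested. Under water 9 were called higher and 1 lower in descending aorta, where 12.1% and 15.2% of all genes were. Under BAPN 10 were called higher and 0 lower, where 14.2% and 15.6% of all genes were. Many of the 15 passed the filter through the descending libraries alone. For these a higher call was built in, and their number is no evidence. Among relatives at the same position in the HoxA cluster, Hoxa5 had 29.2 ± 3.15 CPM in descending water and 5.69 ± 1.04 CPM in ascending water (log2 difference 2.35, SE 0.10, edgeR adjusted p = 1.41e-15). Hoxa5 was thus measured in all libraries of both regions, with 408 counts over the 5 ascending BAPN libraries and 585 over the 5 ascending water libraries. Hoxa7 had 39.6 ± 4.87 CPM in descending water and 0.145 ± 0.093 CPM in ascending water, with 15 counts over the 5 ascending water libraries. Hoxa3 had 34.8 ± 5.34 CPM in descending water and 34.8 ± 5.21 CPM in ascending water and was not called there (adjusted p = 0.989). Under BAPN it was called higher, with 40.8 ± 6.48 CPM in descending BAPN and 32.3 ± 3.75 CPM in ascending BAPN (log2 difference 0.33, adjusted p = 0.0303). Hoxa4 was not called under either treatment, with 6.03 ± 1.17 CPM in descending water and 5.92 ± 0.80 CPM in ascending water (adjusted p = 0.903, and 0.26 under BAPN). In the HoxC cluster, Hoxc4 had 306 counts over the 5 descending water libraries and 2 over the 5 ascending water libraries. Hoxc6 had 602 and 2 counts in these groups, and Hoxc8 423 and 1. The 1 gene called lower was Hoxd9, with 0.693 ± 0.256 CPM in descending water and 1.28 ± 0.363 CPM in ascending water (adjusted p = 0.0435), and it was not called under BAPN (adjusted p = 0.239). Of the 15 genes, 0 were called between BAPN and water in edgeR in either region. Over all genes 10.7% were called in descending and 6.34% in ascending aorta.

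The MEIS proteins are homeodomain proteins that bind DNA together with HOX proteins. Of their 3 genes, all tested, 0 were called higher and 2 lower in descending aorta under water. Over all genes 12.1% were called higher and 15.2% lower. Meis2 had 34.1 ± 2.35 CPM in descending water and 58.2 ± 1.58 CPM in ascending water (log2 difference -0.77, SE 0.06, edgeR adjusted p = 4.65e-11). Meis1 had 28.3 ± 2.03 CPM in descending water and 42.8 ± 1.48 CPM in ascending water (-0.60, SE 0.06, adjusted p = 5.30e-09). Meis3 was not called, with 23.3 ± 1.35 CPM in descending water and 22.4 ± 1.17 CPM in ascending water (log2 difference 0.05, adjusted p = 0.626). Under BAPN Meis2 and Meis1 were again called lower in descending aorta, with log2 differences of -0.77 and -0.39. There 15.6% of all genes were called lower.

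Polycomb and Trithorax proteins keep Hox genes silent or active through histone marks. Of 22 of their genes, all tested, 1 was called higher and 3 lower in descending aorta under water, and the median log2 difference was 0.01. These counts are not above the 12.1% of all genes called higher and the 15.2% called lower. Bmi1, a Polycomb subunit, was higher with a log2 difference of 0.21. The Polycomb genes Cbx2 and Ezh1 were lower with -0.68 and -0.24, and the Trithorax methyltransferase gene Kmt2a was lower with -0.17. These 4 genes kept their calls under BAPN, where Phc1 and Kdm6b were called higher as well, named here after their values were seen.

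Retinoic acid is an inducer of 3′ Hox genes in the embryo. Of 25 genes of its synthesis, breakdown and reception and of other regulators upstream of Hox genes, 19 were tested, and under water 0 were called higher and 8 lower in descending aorta, where 12.1% and 15.2% of all genes were. Aldh1a1, a retinaldehyde dehydrogenase, had 24.0 ± 1.98 CPM in descending water and 81.2 ± 6.78 CPM in ascending water (log2 difference -1.76, SE 0.06, edgeR adjusted p = 5.53e-18). Its relative Aldh1a2 had 0.821 ± 0.544 CPM in descending water and 15.6 ± 3.57 CPM in ascending water (-4.21, SE 0.29, adjusted p = 1.18e-11). Cyp26a1, which breaks retinoic acid down, had 0.127 ± 0.154 CPM in descending water and 5.53 ± 1.72 CPM in ascending water, and Stra6, a retinol transporter, had 0.422 ± 0.266 CPM in descending water and 3.29 ± 0.558 CPM in ascending water. The mesothelial and cardiomyocyte markers given above were lower in the same libraries, and their part in these differences was not tested. Under BAPN 3 genes of the list were called higher and 9 lower in descending aorta, where 14.2% and 15.6% of all genes were.

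Between BAPN and water, 2 of the 9 flanking genes, 1 of the 22 Polycomb and Trithorax genes and 3 of the 19 retinoic acid and upstream genes were called in descending aorta, where 10.7% of all genes were. In ascending aorta, where 6.34% of all genes were called, these counts were 1, 1 and 2, with 1 of the 3 MEIS genes besides. They are named here after their values were seen. In descending aorta Phc2 and Dhrs3 and the flanking gene Ube2z were higher, and Aldh1a3, Gmnn and the flanking gene Cdk5rap3 lower. In ascending aorta Phc2 and Dhrs3 were higher, and Meis1, Aldh1a1 and Cdk5rap3 lower. The largest of these changes was that of Gmnn, the cell cycle regulator geminin, with a log2 difference of -0.79 in descending aorta (SE 0.16, edgeR adjusted p = 0.00171).

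Across the 20 libraries the genes outside the Hox clusters with the pattern most like the mean of the 8 tested members were Fbln7, a fibulin of the extracellular matrix (Pearson r 0.990), Epha3, an ephrin receptor (0.987), Mmp17, a membrane-anchored metalloproteinase (0.986), Npr1, the receptor of atrial natriuretic peptide (0.985), and Vstm2b (0.985). The libraries form 2 clusters by region, and 92 of 13782 genes ranked had an r above 0.95, so the r of these 5 is taken over both clusters at once. Epha3 averaged 102.5 ± 7.14 CPM in descending BAPN, 111 ± 4.68 CPM in descending water, 18.4 ± 1.93 CPM in ascending BAPN and 17.8 ± 1.74 CPM in ascending water. Within the descending aorta, after each group's mean was taken out, the log2 levels of 2 members had a median r of 0.28 over the 28 pairs, from -0.37 for Hoxb2 with Hoxb7 to 0.82 for Hoxb3 with Hoxb6. The 7 pairs of neighbouring genes had a median r of 0.46 and the 21 other pairs 0.25. These values rest on 10 libraries whose depth and composition all members share, and are given as a description.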

How the data were processed

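The deposited files hold raw counts of reads per gene, which the authors made with fastp, STAR 2.5 and HTSeq 0.6.1 on mm10, per the submitters' processing notes. Per the labels' protocols, libraries were made with NEBNext Ultra kits from total RNA. The counting settings and the annotation are not given in the sources used here. The 20 library files equal the series table. Symbols, coordinates and exon lengths come from GENCODE M21 (54409 gene IDs matched, 123 did not). Groups were read from titles and treatment labels, 5 libraries in each of 4 groups, with totals of 15.7 M to 23.3 M counts.

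The low count filter was filterByExpr of edgeR 4.0.16 (R 4.3.3), with a minimum count of 10 and a minimum total of 15, and libraries were scaled by TMM. A single quasi-likelihood fit to the 4 groups, with 16 residual degrees of freedom, gave 5 comparisons: the regions under each treatment, BAPN against water in each region, and the difference of the BAPN effects. Benjamini-Hochberg adjustment ran over 15543 genes in each comparison. The fit was tested on simulated data. Against a group with 1 to 3 counts, ratios of summed counts with exact 95% intervals are given, and against 0 counts a bound from 3 counts over the group. Ratios of genes were tested by exact permutation (scipy 1.17.1). Figures were drawn with matplotlib 3.10.9.

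The 9 members, the gene lists and the tests were chosen with earlier results of these data known. Of the list of HOX cofactors, the MEIS genes are given and the other results are not reported here. All members are named, and up to 4 called genes of each list with the smallest p between the regions under water. Some relatives of the members, not all, are named as well. So are the 5 genes of most like pattern with a mean of at least 1 CPM (log2 CPM, prior count 2). Alternatives were other scalings, no filter, a stricter filter (1 CPM in 5 libraries), DESeq2 1.42.0, limma-voom 3.58.1 and the compared groups alone. Further ones were a replicate block, a replicate block within each treatment, a term for the library set, fits within a set, and leaving out each library. The sets are the 2 sides of the widest gap in the first principal component of 33 -ps genes that average 2 CPM or more.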

Additional observations from a re-analysis of the deposited data

Results flagged for a closer look

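Of 31 groups of 5 libraries checked for a value that stands apart, 1 had one, and chance flags about 1 in 20 groups. In descending BAPN aorta, Hoxb2 had 5.28 CPM in replicate 4, far below the next lowest library of the group (Dixon ratio 0.762, critical value 0.71 for 5 values). The log2 difference of Hoxb2 between the regions under BAPN was 0.95 without this library (edgeR adjusted p = 1.78e-07) and 0.84 with it, and its BAPN effect in descending aorta, not called in either fit, was 0.26 without the library and 0.14 with it.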

How the results depend on the processing

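Between the regions only Hoxb2, Hoxb3 and Hoxb4 could have lost their calls, since those of Hoxb5 to Hoxb9 were built in. These 3 genes were called higher in descending aorta under every alternative that was run and with each library left out in turn. The highest adjusted p was that of Hoxb2 under water within the set with lower levels (log2 difference 0.80, adjusted p = 0.0138). Over all alternatives and left-out libraries that gave a value, the log2 difference under BAPN ran from 0.70 to 0.95 for Hoxb2, from 1.21 to 1.36 for Hoxb3 and from 0.81 to 1.06 for Hoxb4. For BAPN in either region and for the difference of the effects, 0 HoxB genes were called in any of these fits. In ascending aorta, and so for the difference, this says nothing of Hoxb6 to Hoxb9. No fit within a library set was possible for the regions under BAPN. Small, uncalled BAPN effects changed sign. With a term for the library set the difference of the effects was -0.056 for Hoxb2 and -0.051 for Hoxb4, and the BAPN effect in descending aorta was -0.10 for Hoxb4 and -0.053 for Hoxb5. Within the set with lower levels the effect in descending aorta was -0.033 for Hoxb4 and -0.081 for Hoxb5, and within the other set the effect in ascending aorta was 0.035 for Hoxb4. In descending aorta Hoxb4 also gave -0.019 under upper-quartile scaling, -0.0022 in limma-voom and -0.0024 with the compared groups alone. With each library left out, the effect ran from -0.037 to 0.10 for Hoxb3 in ascending aorta, and in descending aorta from -0.051 to 0.074 for Hoxb4 and from -0.059 to 0.19 for Hoxb9. The cause was not tested.

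Between the regions, the deviations of same-numbered libraries had r from -0.05 to 0.10 under water and from 0.06 to 0.11 under BAPN. Each of the 5 BAPN numbers correlated best with itself, so pairs are possible there. The labels name no animals, and the main test did not take the numbers as pairs. With a replicate block the log2 difference under water was 0.74 for Hoxb2, 1.19 for Hoxb3 and 0.82 for Hoxb4, all 3 called, and 0 BAPN effects were called. All 3 genes were also called between the regions under BAPN with this block, and under both treatments with a block within each treatment. Ranked by CPM without length, Hoxb8 and Hoxb4 stood above Hoxb7 in descending aorta. Of the 5 genes of like pattern 4 were the same with a prior count of 0.5. Ascending counts of 0 to 3 limit every statement on Hoxb6 to Hoxb9 there.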

Other observations

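Descending water replicate 1 held 56.9 CPM of 5 summed lung epithelium markers, where no other library exceeded 1.45 CPM. Without it the log2 difference between the regions under water was 0.76 for Hoxb2, 1.11 for Hoxb3 and 0.81 for Hoxb4, and 0.73, 1.197 and 0.82 with it.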
